A study of Homo sapiens with 6 samples.

Results

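Numbered zinc finger genes of human chromosome 19, named ZNF followed by a number on the array and placed on that chromosome by the array's own annotation (genome build hg18), were described in RH36 cells after transfection with a miR-27a precursor. The rule took 210 of the 30484 gene names on the array, with 337 probes, and 204 of these genes, with 318 probes, had a spot found on at least 5 of 6 arrays and were tested. The 6 genes not tested were ZNF221, ZNF547, ZNF548, ZNF560, ZNF773 and ZNF780B. All 210 names matched a RefSeq gene on chromosome 19, 201 under the same symbol and 9 under a newer one. ZNF702, for example, is now ZNF702P, a pseudogene.

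RH36 is an established line of embryonal rhabdomyosarcoma, a childhood tumour of cells with a muscle precursor character, and it lacks the PAX3/FOXO1 fusion gene. In 3 cultures the cells were transfected transiently with the precursor of miR-27a (pre-miR-27a), and in 3 others with a negative control precursor (pre-control). Total RNA was labelled by a 1-colour protocol, and the labelled copies (cRNA) were hybridised to Agilent whole-genome arrays of 60-base probes. In the labels the precursor is at 10 nM and the time, stated for pre-miR-27a only, is 48 hours, while the study's methods give another dose and time, so the dose and time behind these arrays are not settled. The study asked which transcripts change when an excess of this microRNA is supplied.

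Every value is the log2 processed signal after quantile normalization, and a fold change is the pre-miR-27a mean minus the pre-control mean on that scale with its limma standard error (SE, n = 3 arrays per group). A gene was taken at its brightest probe and called where the Benjamini-Hochberg adjusted p of limma over all probes was under 0.05. Of 43376 spots, between 69.93% and 73.92% were well above background on the pre-control arrays and between 74.14% and 77.98% on the pre-miR-27a arrays, and 0 were saturated. Spots not found, which were set to missing, numbered 1559 to 1750 on the pre-control arrays and 3487 to 4153 on the pre-miR-27a arrays. The groups were on separate slides, one for each, so the slide and the precursor cannot be told apart in any comparison here. Local background had an array median of 74.5 to 76 intensity units on the pre-control slide and of 52.5 to 53 on the other. Of 8 skeletal muscle markers, 7 were tested, and all 7 were well above background on all 6 arrays and had fold changes below zero (median −0.25). Of these 0 were called by limma (3 were lower at an unadjusted p under 0.05), and 3, the myogenic factors MYOD1 and MYOG and the cadherin CDH15, were called lower with the replicate block. The summed signal of all 7 tested muscle markers was 253948 to 320339 intensity units with pre-control and 221686 to 275542 with pre-miR-27a. Of 5 epithelial markers, 3 were well above background on all arrays (KRT8, called lower by limma, KRT18, called higher, and CLDN4, not called), and the defining EPCAM and CDH1 were well above background on 0 arrays. The sum of the 5 epithelial markers was 2653 to 2857 against 2385 to 2602. Of 5 blood markers, CD3E and CD14 were well above background on all arrays and called lower by limma, and the defining PTPRC and HBB were well above background on 0 arrays. The sum of the blood markers was 366 to 412 against 264 to 287. The part of these markers in the results below was not tested.

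Most of these genes encode proteins with a KRAB domain followed by an array of C2H2 zinc fingers. The fingers bind DNA, often within transposable elements, and the KRAB domain recruits the corepressor TRIM28 (KAP1), which assembles a histone H3 lysine 9 methyltransferase, heterochromatin proteins and a deacetylase complex. The genes arose by repeated tandem duplication and lie in clusters of similar neighbours on chromosome 19. MIR27A itself lies on the short arm of the same chromosome. Its mature product is shown because it is the agent transfected, from RefSeq at chr19:13836447-13836467 on the minus strand of GRCh38.p14, with the seed (bases 2 to 8), through which a microRNA pairs with its targets, in capitals.
hsa-miR-27a-3p: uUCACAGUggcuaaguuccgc

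Chromosome 19 ZNF genes were mostly higher with pre-miR-27a. Of the 204 genes tested, 26 (12.7%) were called higher and 2 (0.98%) lower, where of all 27328 gene names tested 3.07% were called higher and 4.33% lower. The fold change was above zero for 143 genes (70.1%), against 43.7% of all gene names. The median fold change was 0.14 against −0.04 over all gene names, and 8 in 10 of the ZNF genes lay between −0.22 and 0.53. When the replicate number was kept as a block, since same-numbered arrays deviated together, 38 of the genes were called higher and 7 lower, against 5.97% and 8.1% of all gene names. The 3 arrays of each group did not overlap for 78 genes that were higher (38.2%) and 20 that were lower (9.8%), against 12.6% and 18.9% of all gene names. Counted by probe, 44 of 318 were called higher and 3 lower, against 3.95% and 3.88% of all 36469 probes. With 75th percentile scaling in place of quantiles, higher calls made up 29.4% of all calls on the array in place of 41.5%, and of the ZNF calls 91.3% in place of 92.9% (21 higher and 2 lower). These are levels in whole cultures, in which a change in the share of expressing cells and a change in RNA per cell cannot be told apart.

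Other genes of chromosome 19 were mostly lower. Among the 1398 other gene names placed on chromosome 19, 32 (2.29%) were called higher and 119 (8.51%) lower, and their median fold change was −0.14. Among the 236 numbered ZNF genes of other chromosomes, 16 (6.78%) were called higher and 5 (2.12%) lower, 59.7% were above zero, and the median was 0.05. Of all gene names, 3.07% were called higher and 4.33% lower, and 43.7% were above zero. These groups were compared as counts and medians, with no test between them. Among genes well above background on all 6 arrays, 26 of 190 chromosome 19 ZNF genes (13.7%) were called higher and 2 (1.05%) lower, with a median of 0.14. Of all such gene names 3.38% were called higher and 5.43% lower, and the median was −0.04.

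**Figure D1:**
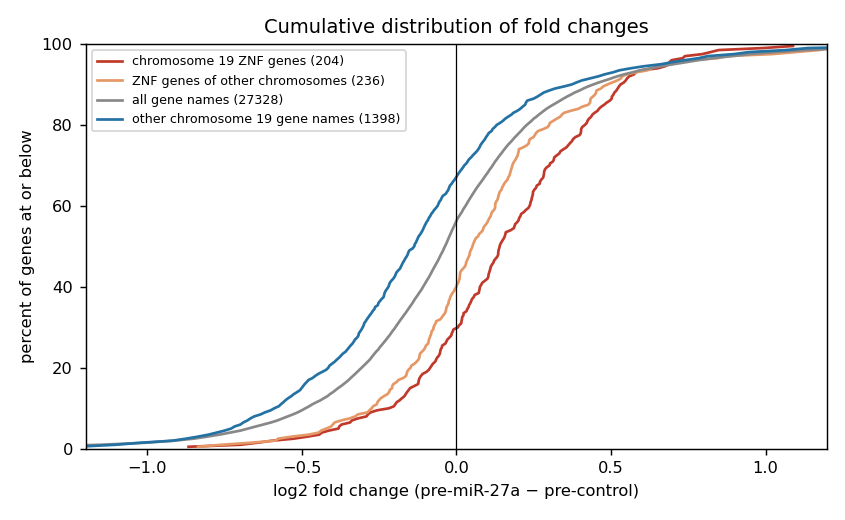
Cumulative percent of genes (vertical axis) at or below each log2 fold change of pre-miR-27a over pre-control (horizontal axis), for the chromosome 19 ZNF genes, the ZNF genes of other chromosomes, all gene names and the other gene names of chromosome 19, with the number of genes in the legend. The curve of the chromosome 19 ZNF genes lies to the right of the others over most of the range, and that of the other chromosome 19 genes lies to the left, with medians of 0.14 and −0.14.

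The same held on each array. Over the 193 ZNF genes measured on all 6 arrays, the median deviation from a gene's own mean was −0.07, −0.07 and −0.09 on the pre-control arrays and 0.08, 0.08 and 0.07 on the pre-miR-27a arrays. The groups did not overlap, and the difference of 0.15 had a standard deviation of 0.01 over the arrays. For all gene names the difference was −0.04, and for the other genes of chromosome 19 it was −0.14.

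**Figure D2:**
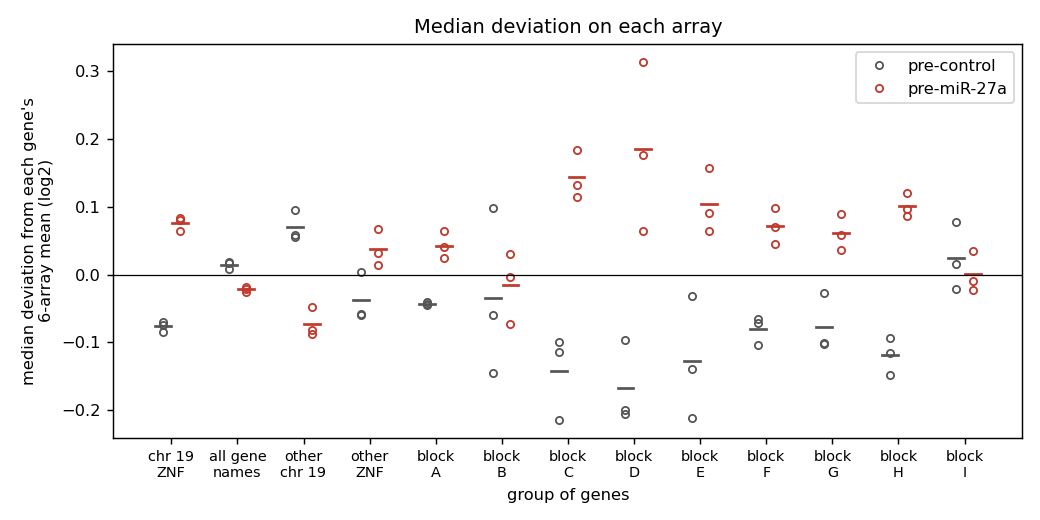
Median deviation of genes from their own mean over the 6 arrays (log2, vertical axis) on each array, for groups of genes and for blocks A to I of chromosome 19 ZNF genes (horizontal axis). Circles are arrays and bars are means of 3 arrays; pre-control and pre-miR-27a circles are apart in blocks A and C to H and overlap in blocks B and I.

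The largest called rise was in ZNF420 (probe at chr19:42311768-42311827, hg18), a KRAB protein known as a negative regulator of p53. Its signals were 8.56, 8.05 and 8.20 on the pre-control arrays and 9.51, 9.37 and 9.20 on the pre-miR-27a arrays. Every pre-miR-27a array was above every pre-control array, by 1.09 ± 0.16 (limma adjusted p = 0.02389). ZNF766 (chr19:57486260-57486319) was at 9.03, 8.77 and 8.79 with pre-control and at 9.89, 9.88 and 9.82 with pre-miR-27a. The groups were apart by 1.00 ± 0.10 (limma adjusted p = 0.01762), and the pre-miR-27a arrays lay closer together than the pre-control arrays.

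ZNF667 (chr19:61644387-61644446), whose rodent counterpart was described as a stress-induced repressor, was at 9.25, 8.68 and 8.94 against 9.95, 9.65 and 9.73 with pre-miR-27a. The pre-control arrays were the more spread and still did not reach the others, and the gene rose by 0.82 ± 0.17 (limma adjusted p = 0.04633). Its call was lost in 1 of 9 alternative analyses of all 6 arrays (limma adjusted p = 0.05694). ZNF331 (chr19:58773129-58773188), a KRAB repressor whose promoter is often methylated in gastrointestinal tumours, was at 10.52, 10.54 and 10.17 against 11.11, 11.33 and 11.01. It rose by 0.74 ± 0.14 (limma adjusted p = 0.0409), with pre-control array 3 the lowest of the 6.

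ZNF132 (chr19:63636630-63636689) and ZNF154 (chr19:62904911-62904970) are both known for promoter methylation in carcinomas, and both rose. ZNF132 was at 5.93, 6.07 and 6.17 against 6.78, 6.89 and 6.72 (0.74 ± 0.10, limma adjusted p = 0.02031). ZNF154 was at 7.19, 7.22 and 7.18 against 7.73, 8.02 and 7.83 (0.66 ± 0.10, limma adjusted p = 0.02303). With normexp background correction both were still called, at 0.40 and 0.42. A second and dimmer probe of ZNF154 differed by −0.88 ± 0.28 without passing the test, so the direction for this gene rests on the brightest probe.

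ZNF283 (chr19:49043443-49043670) was at 9.92, 10.04 and 10.19 with pre-control and at 10.77, 10.69 and 10.75 with pre-miR-27a, a rise of 0.69 ± 0.10 (limma adjusted p = 0.02139). Of its 4 probes the 2 brightest were called higher, and the other two differed by 0.06 and −0.01. The remaining large rises were ZNF44, ZNF441 and ZNF675, which belong to the short arm clusters described next.

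**Figure D3:**
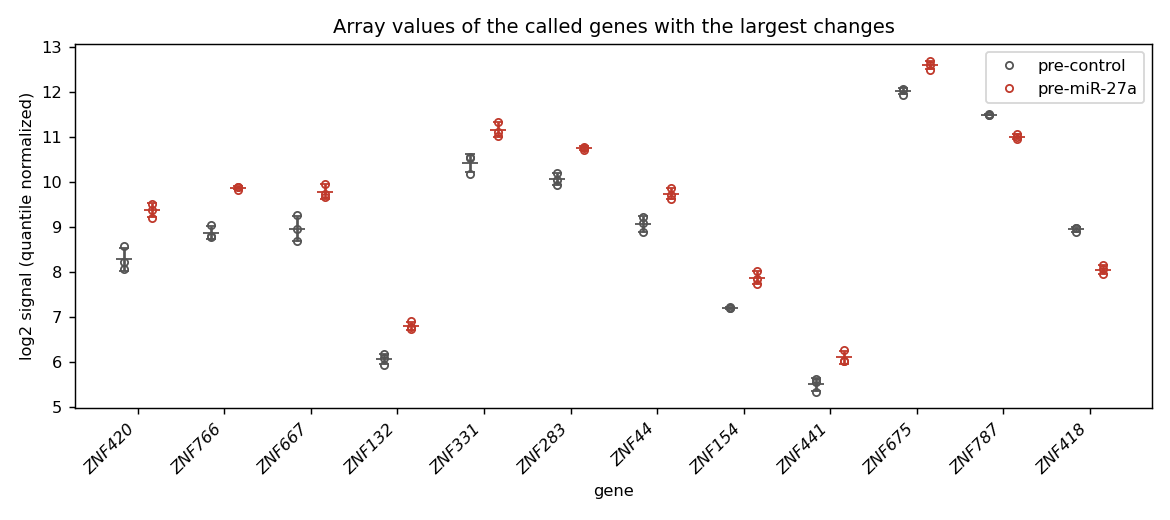
Quantile normalized log2 signal (vertical axis) of the 10 called ZNF genes with the largest rises and the 2 called lower (horizontal axis), with each array as a circle, the mean of 3 arrays as a bar and its standard deviation as the error bar. In each of the 12 genes the pre-control and pre-miR-27a arrays do not overlap; signals of different probes are not comparable levels.

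The 2 genes called lower were both in the cluster near the end of the long arm. ZNF418 (chr19:63125488-63125547), a KRAB repressor, was at 8.97, 8.97 and 8.88 with pre-control and at 8.14, 7.94 and 8.05 with pre-miR-27a. The groups were far apart relative to their spread, and the gene fell by 0.90 ± 0.09 on the log2 scale (limma adjusted p = 0.01762). Its neighbour ZNF417 went the other way, from 11.06, 10.97 and 10.89 to 11.43, 11.35 and 11.41 (0.42 ± 0.08, limma adjusted p = 0.03837). ZNF787 (chr19:61290746-61290805) was at 11.47, 11.49 and 11.50 against 11.05, 11.00 and 10.95, and fell by 0.49 ± 0.07 on the log2 scale (limma adjusted p = 0.02337).

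Along the chromosome, genes whose probes lay within 1 Mb of the next were joined into blocks, which gave 16 blocks. The 9 blocks of at least 5 genes held 200 of the 210 genes and are called A to I from the end of the short arm. The widest gap, 11.6 Mb from 24.1 to 35.7 Mb in hg18, separates the arms. On the short arm 14 of 67 tested genes were called higher and 0 lower, and on the long arm 12 of 137 were called higher and 2 lower. Of all gene names 3.07% were called higher and 4.33% lower, to be set beside the block counts below as well. At an unadjusted limma p under 0.05 the arm counts were 27 and 1 on the short arm and 32 and 11 on the long arm. Of all gene names 9.68% were higher and 14.1% lower at that threshold. The median fold changes were 0.24 and 0.12. Whether the arms differ was not tested.

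**Figure D4:**
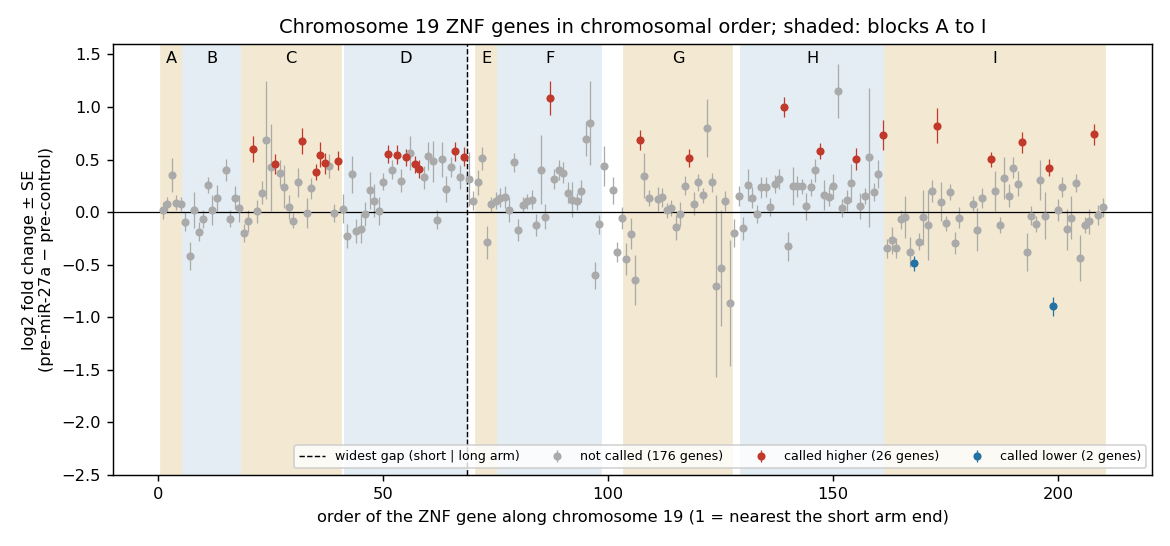
Log2 fold change of pre-miR-27a over pre-control (vertical axis, error bars are SE) of the 204 tested ZNF genes in their order along chromosome 19 (horizontal axis), with genes called higher, called lower and not called in separate colours, shading for blocks A to I and a dashed line at the widest gap. Blocks C and D hold 14 of the 26 genes called higher, and both genes called lower are in block I.

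Block D, from ZNF101 to ZNF254 (19.7 to 24.1 Mb), holds clusters that expanded in primates, among them ZNF91, a known silencer of SVA retrotransposons. Of its 27 genes, 7 were called higher and 0 lower, and 22 were above zero. In 18 genes (66.7%) every pre-miR-27a array was above every pre-control array and in 0 the reverse, against 12.6% and 18.9% of all gene names. At an unadjusted limma p under 0.05, 16 were higher and 0 lower. The median fold change was 0.36, and on single arrays the block's median deviation was −0.20, −0.10 and −0.21 with pre-control and 0.06, 0.31 and 0.18 with pre-miR-27a. The 7 genes were ZNF85, ZNF714, ZNF708, ZNF738, ZNF429, ZNF675 and ZNF254, with rises of 0.41 to 0.58. The block had 3 genes called higher with 75th percentile scaling, 3 with the mean of a gene's probes and 11 with the replicate block.

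The largest was ZNF675 (chr19:23628674-23628733), a protein known to bind the signalling adaptor TRAF6. It was at 12.04, 12.07 and 11.93 with pre-control and at 12.49, 12.69 and 12.59 with pre-miR-27a, a rise of 0.58 ± 0.09 (limma adjusted p = 0.02536). ZNF85 (chr19:20924222-20924281) was at 11.91, 11.95 and 11.79 against 12.34, 12.50 and 12.48 (0.55 ± 0.09, limma adjusted p = 0.0266). In both genes the lowest pre-miR-27a array was above the highest pre-control array. ZNF91 itself differed by 0.43 and did not pass (limma adjusted p = 0.05398). It is named after its values were seen, and with the replicate block its adjusted p was 0.03927.

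Block C, from ZNF653 to ZNF791 (11.5 to 12.6 Mb), had 7 of 22 genes called higher and 0 lower (9 and 0 at an unadjusted limma p under 0.05), with a median of 0.33. They were ZNF441, ZNF700, ZNF44, ZNF799, ZNF443, ZNF709 and ZNF791. With the mean of a gene's probes 1 gene of the block was called. ZNF44 (chr19:12244567-12244626) was at 9.21, 8.87 and 9.08 with pre-control and 9.71, 9.62 and 9.87 with pre-miR-27a, a rise of 0.68 ± 0.12 (limma adjusted p = 0.03518). Its 2 dimmer probes were above zero, at 0.39 and 0.13, and not called. ZNF441 (chr19:11753951-11754010) was at 5.61, 5.33 and 5.54 against 6.26, 6.01 and 6.01 (0.60 ± 0.12, limma adjusted p = 0.04311). With normexp background correction its fold change was 0.22 and it was no longer called, and the block's median was then 0.19. In all, ZNF441 lost its call in 4 of the 9 alternative analyses of all 6 arrays (limma adjusted p up to 0.1552). Of the other short arm blocks, block A (ZNF554 to ZNF77, 5 genes) had a median of 0.07 and block B (ZNF557 to ZNF562, 12 tested) a median of 0.02, both with 0 genes called by limma. At an unadjusted p under 0.05 there were 0 genes in block A and 2 higher and 1 lower in block B. With the replicate block 1 gene of block A, ZNF556, and 0 genes of block B passed.

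On the long arm, block E (ZNF302 to ZNF792, 5 genes) had 0 called by limma, 1 higher at an unadjusted p under 0.05, and a median of 0.11. Block F (ZNF565 to ZNF573, 23 genes) had ZNF420 as its one called gene, with 18 of its genes above zero and a median of 0.14. At an unadjusted limma p under 0.05, 6 genes of block F were higher and 1 lower. Block G (ZNF575 to ZNF342, 23 tested) had a median of 0.11, with 6 genes higher and 2 lower at that threshold. It had 2 genes called higher, ZNF283 and ZNF234 (0.51 ± 0.08, limma adjusted p = 0.02906). Both encode KRAB zinc finger proteins.

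Block H, from ZNF175 to ZNF331 (56.8 to 58.8 Mb), had 29 of 32 genes above zero, and 4 were called higher, ZNF766, ZNF600, ZNF665 and ZNF331. Its median was 0.24, and at an unadjusted limma p under 0.05, 12 of its genes were higher and 0 lower. It also held the longest run of neighbours above zero, 21 genes from ZNF610 to ZNF331, of which 3 were called. ZNF702, the pseudogene, went from 3.97, 4.68 and 4.79 to 5.38, 5.65 and 5.87 and did not pass. Its probe was dim, well above background on 4 of the 6 arrays, so its size is uncertain (1.15 ± 0.26, limma adjusted p = 0.05422; 0.03343 with the replicate block). It is named after its values were seen.

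Block I, from ZNF628 to ZNF446 (60.7 to 63.7 Mb), had genes called in both directions. With the replicate block, blocks F (3 higher and 1 lower) and G (2 higher and 1 lower) did as well, and block F also under 5 other alternatives. Of 46 genes tested in block I, 5 were called higher (ZNF667, ZNF549, ZNF154, ZNF417 and ZNF132) and 2 lower, 20 were above zero, and the median was −0.04. At an unadjusted limma p under 0.05, 7 of these genes were higher and 7 lower. In block I the groups of arrays did not overlap for 10 genes that were higher (21.7%) and 12 that were lower (26.1%), against 12.6% and 18.9% of all gene names. Its medians on single arrays overlapped between the groups, at 0.02, 0.08 and −0.02 with pre-control and 0.04, −0.02 and −0.01 with pre-miR-27a. Over 188 pairs of adjacent genes within blocks, the fold changes of neighbours had a Pearson r of 0.18 and a Spearman rho of 0.26. These are correlations across genes that share the same 6 arrays and often similar sequence, given as a description.

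Promoters were compared because neighbouring ZNF genes often arose by duplication and can share upstream sequence. RefSeq windows of 250 bases before to 50 after a transcript start (GRCh38.p14) were found for 179 of the 210 genes, 223 windows in all. All windows were scored for 7 motifs, and only those named here are described in full. No allowance was made for the number of motifs searched. CCAAT, the motif of the factor NF-Y, was searched on both strands (CCAAT or ATTGG) and was in 47.5% of these windows, against 34.6% of all 35116 promoter windows and 35.7% of those of other chromosome 19 genes. It was in 87% of 23 windows of block C and 95.7% of 23 windows of block D. It was also in 100% of 6 windows of block A and 57.8% of 45 windows of block I. In blocks B, E, F, G and H the shares were 16.7%, 50%, 16.7%, 20.8% and 26.5%. The median fold changes of blocks A to I were 0.07, 0.02, 0.33, 0.36, 0.11, 0.14, 0.11, 0.24 and −0.04. Whether they go with the shares was not tested. The 100 bases before the start are shown for the 3 largest called rises of block C (ZNF44, ZNF441 and ZNF443) and of block D (ZNF675, ZNF85 and ZNF714), for the 2 largest called rises (ZNF420 and ZNF766) and for the largest called fall (ZNF418), to let the blocks be compared by eye. Capitals mark CCAAT or ATTGG. Coordinates are GRCh38.p14, with the strand after each, and for genes with several windows (ZNF44 and ZNF420) the first listed is shown.
ZNF44, chr19:12294884-12294983, minus strand: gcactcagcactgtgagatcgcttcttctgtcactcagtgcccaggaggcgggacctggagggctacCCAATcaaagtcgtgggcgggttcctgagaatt
ZNF441, chr19:11766900-11766999, plus strand: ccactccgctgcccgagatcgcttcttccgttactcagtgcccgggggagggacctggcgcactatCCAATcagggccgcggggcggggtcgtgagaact
ZNF443, chr19:12441022-12441121, minus strand: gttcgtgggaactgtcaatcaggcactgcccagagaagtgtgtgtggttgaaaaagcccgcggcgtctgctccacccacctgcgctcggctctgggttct
ZNF675, chr19:23687213-23687312, minus strand: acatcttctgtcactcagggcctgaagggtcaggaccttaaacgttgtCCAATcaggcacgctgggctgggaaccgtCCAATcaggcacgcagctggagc
ZNF85, chr19:20923151-20923250, plus strand: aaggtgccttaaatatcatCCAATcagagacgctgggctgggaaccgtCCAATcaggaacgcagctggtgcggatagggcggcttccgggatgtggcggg
ZNF714, chr19:21082103-21082202, plus strand: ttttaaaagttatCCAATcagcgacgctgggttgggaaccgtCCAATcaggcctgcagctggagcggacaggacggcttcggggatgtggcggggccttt
ZNF420, chr19:37078333-37078432, plus strand: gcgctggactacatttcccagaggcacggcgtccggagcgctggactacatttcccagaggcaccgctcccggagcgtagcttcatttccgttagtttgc
ZNF766, chr19:52269487-52269586, plus strand: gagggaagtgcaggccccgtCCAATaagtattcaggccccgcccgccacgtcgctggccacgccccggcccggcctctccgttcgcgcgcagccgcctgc
ZNF418, chr19:57935403-57935502, minus strand: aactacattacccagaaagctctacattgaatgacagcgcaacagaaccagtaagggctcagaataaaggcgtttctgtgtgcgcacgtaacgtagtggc

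ZNF675, ZNF85 and ZNF714 of block D each hold 2 matches in these 100 bases, and ZNF44 and ZNF441 of block C hold 1. ZNF443 has none here and 1 elsewhere in its window. Of tested genes with a promoter window, 19 of 94 with the motif were called higher and 0 lower, and 3 of 80 without it were called higher and 2 lower, with median fold changes of 0.20 and 0.12. In blocks C and D, 42 of 43 such genes had the motif. Outside them 6 of 52 genes with it and 3 of 79 without it were called higher, and the medians were 0.05 and 0.12, so the order of the medians was not the same there. A match is a description of the letters and not a binding site. Shares of other scored motifs also differed between groups of windows. A motif not named here was in 41.7% of the 12 windows of block B and 1.85% of all promoters. Others were in 50% and 10% of the windows of genes called higher, against 65.6% and 1.61% for genes not called. None of these differences was tested. CCGGAA, the core letters of ETS family sites, was in 48.4% of the ZNF windows and 17.2% of all promoters, and in 43.3% of the 30 windows of genes called higher.

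**Figure D5:**
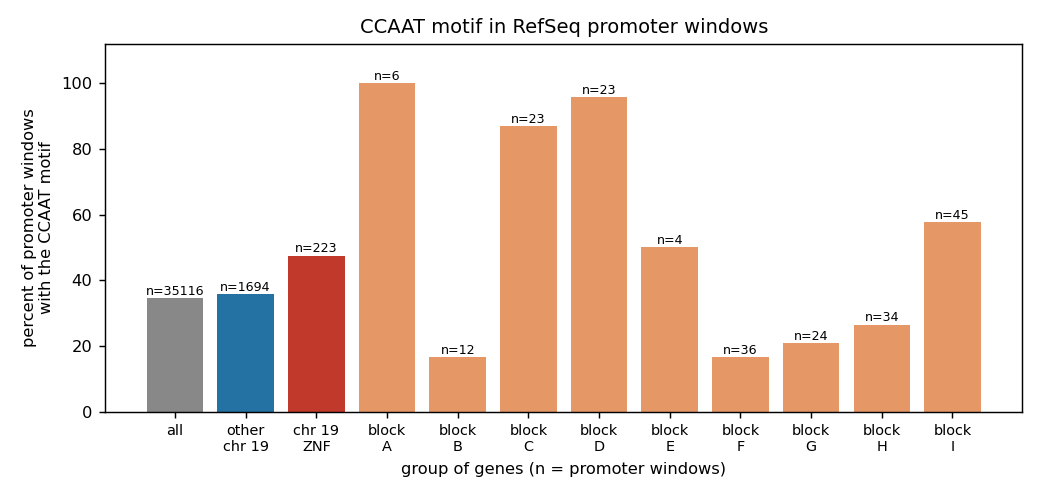
Percent of RefSeq promoter windows with CCAAT on either strand (vertical axis) for all promoters, other chromosome 19 genes, chromosome 19 ZNF genes and blocks A to I (horizontal axis), with the number of windows above each bar. Blocks C and D stand at 87% and 95.7%, while block A, with 6 windows, is at 100%, and blocks B, F, G and H are below the 34.6% of all promoters.

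Because paralogs and several probes per gene are common here, probes of one gene were set side by side. Of 81 genes with more than 1 tested probe, 46 had all probes on one side of zero and 35 did not, and 0 had one probe called higher and another lower. Of 13 such genes called higher at the brightest probe, 8 had all probes above zero and 4 had a second probe called. ZNF160, a KRAB gene that represses TLR4, was one of the 35, with 5 probes. Its brightest was at 10.74, 10.69 and 10.83 against 10.72, 10.76 and 10.90, with groups that overlapped (0.04 ± 0.09), while 3 dimmer probes were called higher by 0.48, 0.71 and 0.93. With the mean of all probes in place of the brightest, 11 of the 204 genes were called higher and 2 lower. Among the genes no longer called were ZNF44, ZNF154, ZNF283 and ZNF331, at 0.38, 0.47, 0.29 and 0.60, and ZNF160 was then called higher, at 0.43 (limma adjusted p = 0.03629). This mean was over the probes found on each array, so a missing dim probe raises the mean of that array. The dimmer probe of ZNF154 differed downward by more than the brightest rose. Its 0.47 (limma adjusted p = 0.6188) is therefore not read as the mean of its probes' changes. Whether a probe also captures a paralog's transcript was not tested.

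A supplementary list of the study's changed predicted targets holds 8 of these genes, ZNF160, ZNF254, ZNF493, ZNF549, ZNF559, ZNF574, ZNF709 and ZNF738. Its title limits it to genes in significant functional categories, while a figure legend of the study calls it complete. Other genes described here may therefore also be changed predicted targets of the study. The list was chosen on these arrays and is not independent evidence. The study's methods call the targets that it analysed by function anti-correlated, whereas here 7 of the 8 were above zero and 1 below. By limma 4 were called higher (ZNF254, ZNF549, ZNF709 and ZNF738, by 0.45 to 0.53) and 0 lower. At an unadjusted limma p under 0.05 there were 6 higher and 1 lower. With 75th percentile scaling ZNF254 (limma adjusted p = 0.08435) and ZNF738 (limma adjusted p = 0.0635) were no longer called, and with normexp ZNF709 was not (limma adjusted p = 0.05655). Over the 9 alternative analyses of all 6 arrays, ZNF254 and ZNF709 each lost the call in 2 and ZNF738 in 1. ZNF493 was at 12.89 ± 0.15 (SD, n = 3) with pre-control and 13.45 ± 0.27 (SD, n = 3) with pre-miR-27a. The difference did not pass without the block (0.56 ± 0.16, limma adjusted p = 0.1013; 0.03674 with the replicate block). ZNF574 differed by −0.38 ± 0.09 (limma adjusted p = 0.06923; 0.03987 with the block). ZNF559 differed by 0.26 ± 0.08 (limma adjusted p = 0.1143).

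KRAB proteins act through a set of corepressor genes. Of 27 listed, 26 were tested, and 1 was called higher and 0 lower by limma, a share near the 3.07% and 4.33% of all gene names. Of the 26, 8 were above zero and 18 below, and the median fold change was −0.07. At an unadjusted limma p under 0.05, 1 was higher and 1 lower. The gene that rose was CHD3, a chromatin remodeler of the NuRD deacetylase complex that TRIM28 recruits (0.48 ± 0.08, limma adjusted p = 0.02916). TRIM28 differed by −0.18 ± 0.09 (limma adjusted p = 0.3004).

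Genes were called higher among dim, middle and bright probes. Among the 204 genes the correlation of fold change with mean log2 signal was −0.03, across genes and as a description. In the dimmest, middle and brightest 68 genes, 5, 10 and 11 were called higher and the medians were 0.20, 0.17 and 0.07. Mean signals ran from 2.3 (ZNF229, missing on 1 array) to 15.28 (ZNF525), and 6 genes were well above background on 0 arrays. The median local background differed by 22.83 intensity units between the slides. At the signals of the 26 genes called higher that amount is worth a median of 0.026 and at most 0.495 on the log2 scale, the latter for ZNF441, which rose by 0.60, and its part in the rises was not tested. For single genes the calls rest on all 6 arrays. Without pre-control array 1 limma called 8 genes higher and 1 lower, against 1.51% and 1.7% of all gene names. Without any one of the other 5 arrays it called 0 ZNF genes in either direction. Over all gene names those fits also called 0, except 32 higher and 30 lower without pre-control array 3. At an unadjusted limma p under 0.05, 48 to 56 ZNF genes were higher and 8 to 15 lower over the 6 fits, against 59 and 12 with all arrays. Over all gene names, 7.7% to 9.33% were higher and 11.1% to 13.6% lower at that threshold in the 6 fits. The median of the ZNF genes stayed between 0.13 and 0.16 in those 6 fits.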

How the data were processed

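The authors deposited, for each array, the processed intensity of every spot from Feature Extraction 10.5.1.1 (local background and quality flags included; hg18 probe positions, per the file headers), and, as a separate series-wide file, log2 values that they had quantile normalized. Background subtraction within arrays and not-found spots can change dim probes most. Here log2 of the deposited processed intensity was quantile normalized, not-found spots (the deposited flag) were set to missing, replicate spots were averaged and probes with more than 1 missing array of 6 were removed. limma 3.58.1 (R 4.3.3) compared pre-miR-27a with pre-control over all probes with Benjamini-Hochberg adjustment at 0.05. The fit was tested on simulated data with independent noise and with changes larger than most of those called here. Smaller changes and the correlation of same-numbered arrays were not simulated. SAM, named in the study's methods, was not rerun, since it rests on relabelling 3 arrays against 3. The study's methods name SAM between classes, and its results name a paired form. The fits here without the replicate block leave the pairing out. Promoter windows and plots used Python 3.11.15, pandas 2.3.3 and matplotlib 3.10.9.

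The labels number the replicates of each group and state no pairing between groups. Where the numbers matched, departures from the group mean correlated at 0.396, 0.456 and 0.409 over 31717 probes, against −0.266 to −0.123 for other pairs. What the arrays of one number share was not tested. Alternatives were 75th percentile scaling, normexp (offset 50), other filters on dim probes, the deposited log2 values, a variance trend with robust estimation, the replicate block, the mean of a gene's probes, and leaving out each array. The fold change relative to all gene names and the slide background limit were added after seeing the data. The members and the gene lists were chosen with earlier results of these data known. Genes were named as the 10 largest called rises and falls without overlap of arrays, the study's list, called genes and first and last genes of each block, TRIM28 and called corepressors, and the brightest and dimmest genes. Any other gene is said to be named after its values were seen, or is given only as part of a count. Labels call the arrays biological replicates. P-values measure the spread between these arrays, and their number limits the precision. Of per-sample columns, 0 were left unused. The values of 1 corepressor gene and 1 blood marker are not reported here.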

Additional observations from a re-analysis of the deposited data

How the results depend on the processing

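The direction of the median of the chromosome 19 ZNF genes was the same in every alternative run. Genes called higher numbered 26, and 11 with the mean of a gene's probes and 44 when probes were counted. Genes called lower numbered 2, and 4 with normexp, with probes well above background on all arrays, with the positive and significant flag, with the deposited log2 values and with the variance trend, and 7 with the replicate block, which also gave 2 corepressor genes in place of 1. The median of 0.14 was 0.17 with 75th percentile scaling, 0.19 with the mean of the probes found on each array and 0.18 relative to all gene names. Leaving out 1 array gave 0 to 8 genes called higher, 0 to 1 lower, 0 corepressor genes and a median of 0.13 to 0.16. Of all gene names, 0% to 1.51% were then called higher and 0% to 1.7% lower. The cause was not tested beyond the fewer arrays in each fit. A gap of 0.5 Mb in place of 1 Mb gave 10 blocks of at least 5 genes in place of 9. With 1 array left out, ZNF160 ranged from −0.0116 (without pre-miR-27a array 3) to 0.0796 (without pre-control array 3), and with the mean of its probes it was at 0.43. The 3 arrays per group and the shared slides limit every call, and dim probes carry only bounds.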
